A study of Homo sapiens with 36 samples.

Results

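HK-2 cells were exposed for 24 h to a compound labelled Aa at a high dose or at a low dose, and the comparison asks which processes changed further at the high dose and which had already changed to the same level at the low dose. The members are the 3 arrays of the high dose and the 3 arrays of the low dose at 24 h, 6 of the 36 arrays of the series. HK-2 is a human kidney line, immortalized from epithelial cells of the proximal tubule, which reabsorb filtered solutes in the kidney. The labels do not spell out the name Aa and give no concentrations, so the size of the step between the doses is unknown here. The high dose group was treated with Aa at the high dose for 24 h, the low dose group with Aa at the low dose for 24 h, and 3 control arrays of cells given vehicle for 24 h served to place both doses. The same high and low doses at 48 h, in separate cultures of 3 arrays each, are given at the end. All cells were grown to near confluence in 6-well plates in a medium with hormone and growth factor supplements, each array held labelled cRNA of 1 biological replicate, and everything rests on 1 cell line.

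A dose comparison separates responses by where they level off. Sensors of damage and stress, such as the p53, NRF2, ATF4 and interferon pathways, switch on their target genes once a threshold is passed, and some keep rising with the stimulus while others saturate. Long genes are a further readout, because RNA polymerase II needs hours to cross them, so agents that stall or slow the polymerase are known to lower long transcripts more than short ones.

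Values are the authors' log2 GCRMA values, on which a difference of 1 is a 2-fold change, and 4 was taken as the level at or under which differences carry no dependable order. Of 19775 genes with a probe set, 10972 lay above 4 on at least 3 of the 18 Aa arrays and were tested, each by 1 probe set, and the number of arrays limits the precision. A gene is called where the adjusted p (limma, Benjamini-Hochberg over all tested genes, two-sided) is under 0.05. The proximal tubule label was checked against 22 marker genes. Of the 19 with a probe set, 5 lay above 4 and 14 at or under 4 on all arrays of each 24 h group. The 5 were SLC3A1, SLC4A4, DPP4, CDH6 and PAX8. The defining transporters and enzymes LRP2, CUBN, ANPEP, GGT1, SLC34A1, AQP1, SLC22A6, SLC22A8 and SLC5A2 were all among the 14. The log2 of the summed marker signal was 12.9 to 13.2 at the high dose and 13.1 to 13.7 at the low dose, and the ranges overlapped. Of the 6 proximal tubule markers tested, 0 were higher and 1 lower at the high dose (SLC4A4), with a median difference of -0.40; 3 were lower with the replicate block and 0 without high dose replicate 1 or low dose replicate 1 or 2. Of the markers of distal nephron, fibroblast and endothelial cells, 8 were tested and 0 called between the doses (limma; 0 at an unadjusted p under 0.05), 1 of them (CLDN16, distal nephron) being lower with the replicate block, and the single tested leukocyte marker, FCER1G, though called, was at or under 4 on all these arrays. Markers of other cell types were also present. On all arrays of each 24 h group, 4 of 10 fibroblast markers (COL1A1, DCN, LUM and S100A4) lay above 4. So did 3 of 13 distal nephron markers with a probe set (AQP3, SCNN1A and CLDN16), 1 of 10 endothelial markers (ESAM) and 0 of 8 leukocyte markers. Arrays are of bulk RNA, in which fewer cells of a kind and less RNA per cell cannot be told apart.

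The step between the doses changed 2970 of the 10972 tested genes, 27.1%, of which 1878 (17.1%) were higher and 1092 (9.95%) lower at the high dose, and 1037 by at least 2-fold. The groups did not overlap for 39.4% of the genes. Low minus control called 2753 genes (25.1%; 11.6% higher and 13.5% lower), and high minus control 5631 (51.3%; 27.4% higher and 24% lower). The median level of the tested genes was 8.37 ± 0.05 at the high dose and 8.25 ± 0.06 at the low dose, and the ACTB 3′ minus 5′ probe difference, a measure of RNA length, was 1.01 ± 0.33 at the high dose and 0.84 ± 0.15 at the low dose (log2, SD, n = 3 each). Their part in the results was not tested. The division into higher and lower depended on scale. The median difference of all tested genes was 0.06, and shifting every array to 1 median, which moved that median by -0.12, gave 1373 higher and 1618 lower genes, while quantile normalization gave 1583 higher and 1400 lower. With the replicate number as a block, the step between the doses called 4553 genes, 25.3% of those tested being higher and 16.2% lower. List counts given below with the block stand against these larger shares. Among the low dose arrays, replicate 2 lay nearest to the control arrays on many of the genes described here. Without it 709 genes were lower rather than 1092, so each array is given below where values matter.

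Genes were sorted by where along the dose axis they moved, as a description only, because the comparisons share the low dose arrays and noise in those arrays moves both steps in opposite directions. In 883 genes (8.05%; 571 higher, 312 lower) the change was seen with the high dose, while the 95% interval of low minus control lay within 1.5-fold of no change. In 685 genes (6.24%; 490 higher, 195 lower) both steps were called the same way. A further 112 genes (1.02%; 36 higher, 76 lower) changed by at least 2-fold at the low dose, with the 95% interval of high minus low within 1.5-fold. In 253 genes (2.31%) both steps were called in opposite directions, and the high dose could end short of the control level or past it. With the replicate block these counts were 1609, 1328, 160 and 617. Without low dose replicate 2, the first and the last count were 490 and 167. Graded genes numbered 424 without low dose replicate 1 and 407 without low dose replicate 3. Genes level from the low dose numbered 70 without high dose replicate 2 and 74 without low dose replicate 1. Of the 2753 genes called for low minus control, 685 (24.9%) were called further the same way, 253 (9.19%) were called back and 1024 (37.2%) had the interval of the dose step within 1.5-fold. An interval can lie within 1.5-fold only where the standard error is small. Shares of such genes therefore also depend on how precisely the members of a list were measured.

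**Figure D1:**
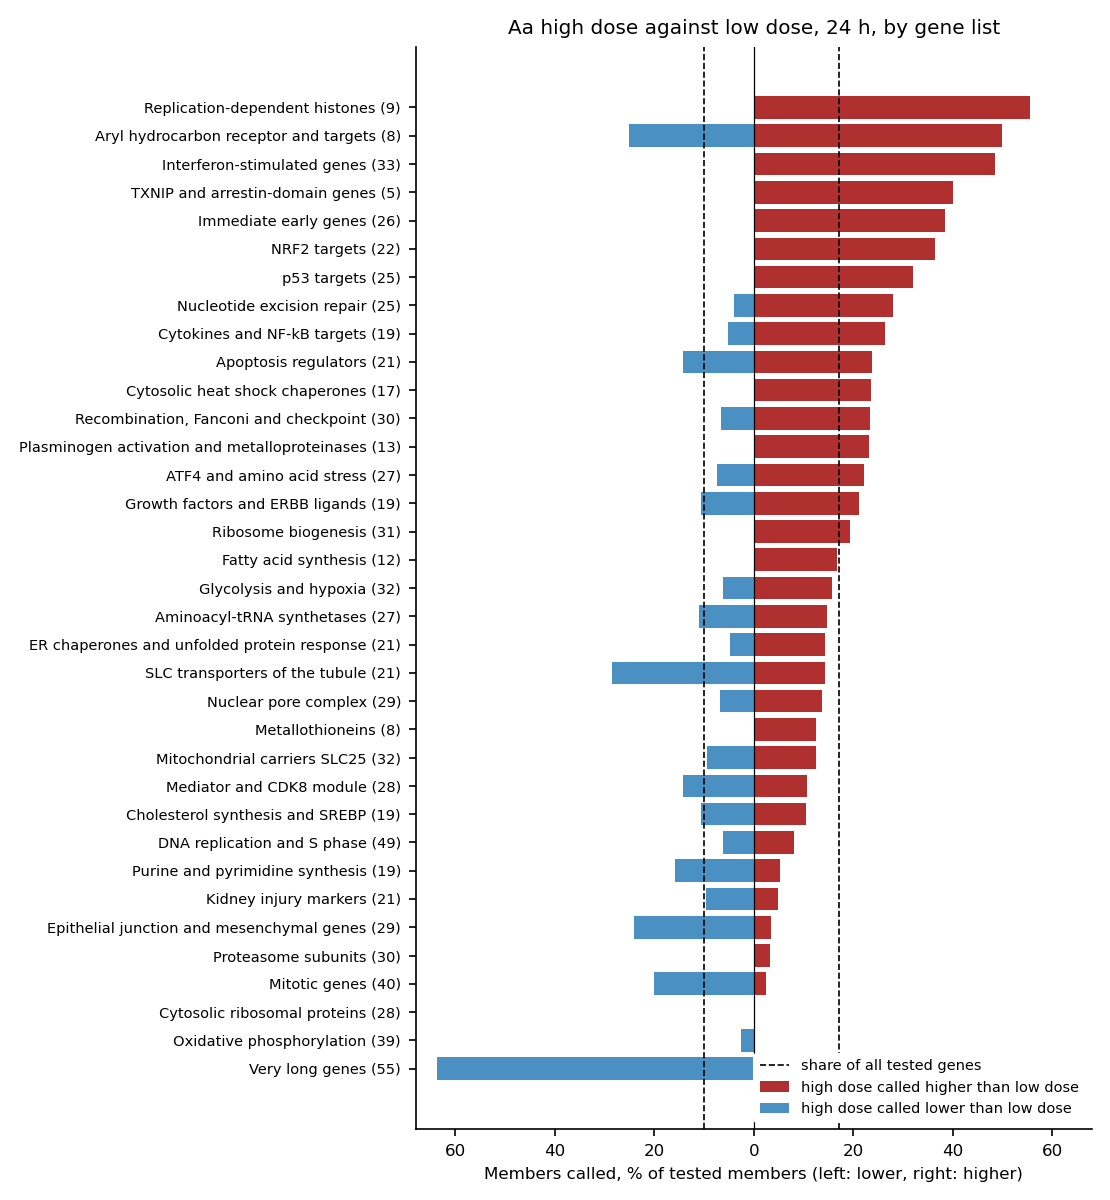
Percent of tested members of each gene list that were called higher (bars to the right) or lower (bars to the left) with the high dose than with the low dose at 24 h, with dashed lines at the shares of all tested genes, 17.1% and 9.95%. Very long genes have the longest bar on the lower side, with 35 of 55 members, and interferon-stimulated and histone genes have long bars on the higher side.

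Of the 40 gene lists, very long genes had the largest median difference between the doses, and they were lower at the high dose. The list held 64 genes known to span very long stretches of the genome, chosen by name from background knowledge since no gene lengths were measured here. Of its 55 tested members, 35 were lower and 0 higher with the high dose than with the low dose, against 9.95% and 17.1% of all tested genes, and the median difference was -1.89, or -1.38 with values under 4 set to 4, against 0.06 for all genes. The list was chosen with earlier results of these data known, and a member that passed the filter through the control and low dose arrays alone could only be level or lower at the high dose.

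The level of the list moved with dose on every array. Its median over members was 4.38, 4.55 and 4.47 on the 3 high dose arrays, against 7.12, 7.97 and 6.70 on the low dose arrays. The control arrays had medians of 8.31, 8.27 and 7.99, so low dose replicate 2 was close to the controls and the other low dose arrays lay between the controls and the high dose. On all 3 high dose arrays 21 members were at or under 4. High minus control called 48 members lower and 0 higher, against 24% and 27.4% of all tested genes. Low minus control called 19 lower and 2 higher, against 13.5% and 11.6%. Of the 21 called at the low dose, 7 were called further the same way, against 24.9% of all genes called at the low dose. The interval of the dose step lay within 1.5-fold for 0 of all 55 tested members, called at the low dose or not. That count therefore cannot tell which members had levelled off.

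**Figure D2:**
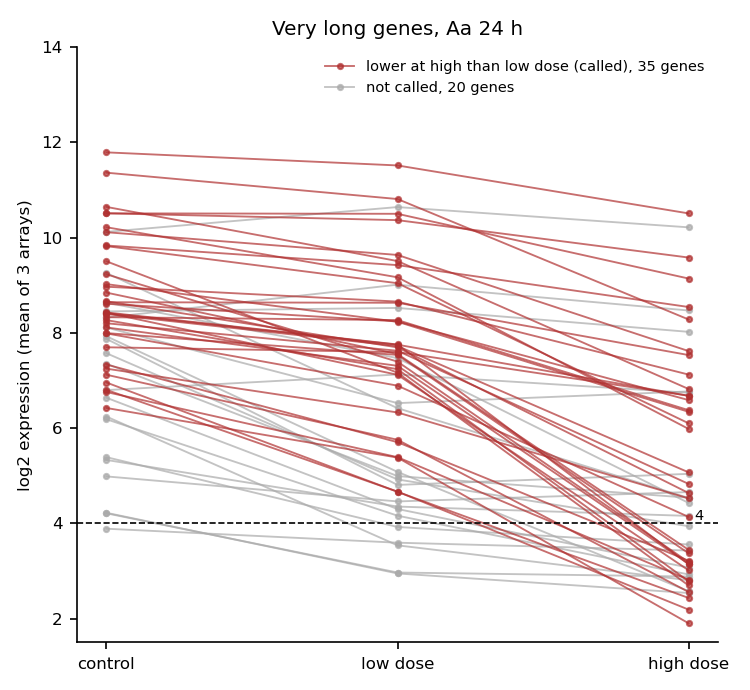
Mean log2 GCRMA value of the 55 tested very long genes in control, low dose and high dose arrays at 24 h, 1 line a gene, with the 35 called between the doses in red, the other 20 in grey and a dashed line at 4. All red lines drop between the low and the high dose, and many end at or under 4.

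Members that reached the low end of the scale at the high dose had signal at the low dose. EXOC4, a subunit of the exocyst that tethers secretory vesicles to the plasma membrane, had log2 values of 3.08, 3.04 and 3.43 at the high dose, against 7.02, 8.47 and 6.70 at the low dose. It was at least 10.5-fold lower at the high dose (limma, adjusted p = 1.86e-05), and low minus control was -1.83 (adjusted p = 0.0106), with the controls at 9.38, 9.16 and 9.14. EXOC4 is thus a graded member, in which the groups did not overlap at either step. ARHGAP6, a GTPase-activating protein, had log2 values of 3.35, 3.45 and 2.62 at the high dose, against 7.91, 8.47 and 6.89 at the low dose, at least 13.5-fold lower (adjusted p = 3.08e-05). All its high dose arrays were at or under 4 and all its low dose arrays well above. Its low minus control difference of -0.67 did not pass the test (adjusted p = 0.424). CHST11, a chondroitin sulfotransferase and no member of the list, had log2 values of 3.56, 3.16 and 3.25 at the high dose and 7.02, 7.89 and 6.80 at the low dose, at least 9.44-fold lower (adjusted p = 1.71e-06), with low minus control at -0.08 (adjusted p = 0.904).

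The 12 largest falls of the dose step were nearly all of this kind. Besides ARHGAP6, EXOC4 and CHST11 they comprised ATXN1, FARS2, RIMS2, PTPRG, PSD3, GPHN, AGAP1, SYT1 and TMEM178B. In 11 of the 12 all 3 high dose arrays lay at or under 4, and the bounds on their fold ran from at least 6.75-fold lower (AGAP1) to at least 13.5-fold lower (ARHGAP6). For SYT1 and TMEM178B another probe set of the gene was tested and not called. FARS2 encodes the mitochondrial phenylalanyl-tRNA synthetase and GPHN the scaffold protein gephyrin of inhibitory synapses.

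Not every long gene was called between the doses. WWOX, a very long gene at a common fragile site, had log2 values of 4.85, 5.36 and 4.91 at the high dose, against 4.15, 6.03 and 4.24 at the low dose, a difference of 0.23 ± 0.68 (SE) that did not pass the test (adjusted p = 0.847). Its low minus control difference was -3.06 (adjusted p = 0.00422), so the fall was already seen at the low dose, with arrays 1 and 3 lower than array 2. With low dose arrays spread this widely, a further fall cannot be told from none. WWOX was chosen after its values were seen. UTRN and LRBA, also chosen that way and also long, dropped by 2.94 ± 0.50 and 3.18 ± 0.50 on the log2 scale (SE; adjusted p = 0.000528 and 0.000313) at the high dose relative to the low dose.

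Some genes fell at the high dose while the low dose left them at the control level. MGAT5, a Golgi enzyme that branches N-glycans, led these, with log2 values of 5.54, 6.00 and 6.06 at the high dose, against 8.66, 9.09 and 8.56 at the low dose, a difference of -2.90 ± 0.23 (SE; adjusted p = 8.22e-07). Its low minus control difference was 0.06. No high dose array of MGAT5 came within 2 log2 units of a low dose array. The next were the transcriptional repressor ETV6 (-1.95), the nuclear receptor coactivator NCOA1 (-1.89), the ceramide synthase CERS6 (-1.88) and the mRNA capping enzyme RNGTT (-1.84), whose high minus low log2 differences had adjusted p-values between 1.2e-05 and 2.9e-05.

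At the other end, 7 of the 12 largest rises of the dose step were in genes with no signal above 4 on any low dose array. Over all 12, the median log2 value was 7.47, 6.95 and 6.97 on the high dose arrays, against 3.75, 2.34 and 3.16 on the low dose arrays. Low dose replicate 2 was again the lowest of its group, near the control medians of 2.28 to 2.29. Among the 883 genes of the high dose pattern, 47 had all low dose and control arrays at or under 4. PNLDC1, an exonuclease that trims piRNAs in germ cells, had log2 values of 6.36, 6.16 and 6.64 at the high dose, against 2.55, 2.21 and 2.25 at the low dose, at least 5.23-fold higher (adjusted p = 2.78e-08). SV2A, a synaptic vesicle protein, had log2 values of 7.04, 5.79 and 5.84 at the high dose, against 2.28, 2.25 and 2.29 at the low dose, at least 4.67-fold higher (adjusted p = 1.65e-07). PYGM, the muscle form of glycogen phosphorylase, had log2 values of 7.65, 6.77 and 6.52 at the high dose, against 3.32, 2.08 and 2.75 at the low dose, at least 7.89-fold higher (adjusted p = 8.22e-07). These are genes known for other tissues, and each was under 4 on every low dose array. CMYA5, RRH and TMC4 showed the same pattern at lower levels, with bounds of at least 3.38-, 2.54- and 2.15-fold.

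The other 5 of the 12 had at least 1 low dose array above 4, ATF3 and LSMEM1 on all 3. LSMEM1, which encodes a small membrane protein, had log2 values of 9.46, 9.41 and 8.92 at the high dose, against 5.69, 4.69 and 5.83 at the low dose, a difference of 3.86 ± 0.33 (SE; adjusted p = 1.75e-06). All its control arrays were under 4, at 2.89, 3.38 and 2.89. It was at least 2.64-fold higher at the low dose than in controls (adjusted p = 0.000125), so it rose at each step, and its groups did not overlap. SLC25A34, a mitochondrial carrier and 1 of the 7 without low dose signal, was at least 10.7-fold higher at the high dose (7.54, 7.39 and 7.35) than at the low dose (3.84, 2.64 and 3.12; adjusted p = 1.72e-07), and its low dose and control values, all under 4, have no dependable order.

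Members of the integrated stress response moved at different steps of the dose. This response slows translation and lets ATF4 be made, and ATF4 then induces ATF3, DDIT3 (CHOP) and genes for amino acid supply. Of 27 tested members of the ATF4 list, 6 (22.2%) were higher and 2 (7.41%) lower with the high dose than with the low dose, near the 17.1% and 9.95% of all tested genes, with a median difference of 0.22. The count of lower members was 1 when any array of the 6 other than low dose replicate 3 was left out. ATF3 had log2 values of 10.23, 9.85 and 9.92 at the high dose, against 6.15, 5.58 and 6.96 at the low dose, a difference of 3.77 ± 0.40 (SE; adjusted p = 1.22e-05). Low minus control was 1.62 (adjusted p = 0.00791), with controls at 4.31, 4.36 and 5.14. ATF3 thus rose at both steps, and its dose groups did not overlap. DDIT3, a transcription factor linked to cell death under prolonged stress, had log2 values of 9.44, 9.25 and 9.15 at the high dose, against 7.88, 7.91 and 7.81 at the low dose, a difference of 1.42 ± 0.18 (SE; adjusted p = 4.77e-05). Its low dose arrays matched the controls within a log2 difference of -0.03, so the rise was seen with the high dose. STC2, a secreted glycoprotein, had log2 values of 8.70, 8.75 and 8.17 at the high dose, against 6.99, 6.65 and 6.81 at the low dose, a difference of 1.72 ± 0.25 (SE; adjusted p = 0.000164), after a similar low minus control difference of 1.63 (adjusted p = 0.000294).

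Other members of the list were level from the low dose. Of 9 members called at the low dose, 3 were called further and 6 had the interval of the dose step within 1.5-fold. The interval lay within 1.5-fold for 37.2% of all genes called at the low dose and for 13 of all 27 members. CEBPG, a dimer partner of ATF4, had a high minus low log2 difference of 0.07, with a 95% interval of -0.16 to 0.30, after a low minus control difference of 1.07 (adjusted p = 1.15e-05). ATF4 itself had 0.18 (-0.12 to 0.49) for the dose step and 0.57 for low minus control (adjusted p = 0.00845). Both were chosen after their values were seen. The members that were lower at the high dose included DDIT4, an inhibitor of mTORC1 signalling, which dropped by 1.07 ± 0.26 (log2, SE; adjusted p = 0.00637) and was likewise chosen after its values were seen.

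**Figure D3:**
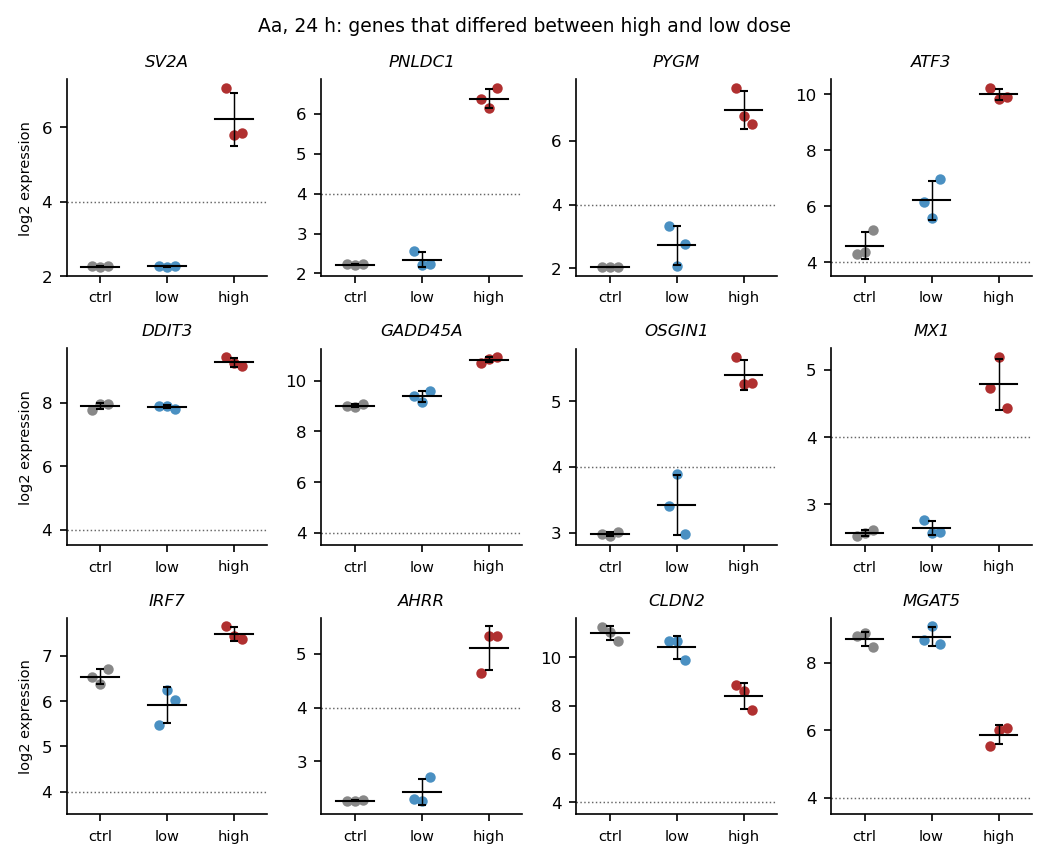
Log2 GCRMA values of 12 genes in control, low dose and high dose arrays at 24 h. Points are arrays, short horizontal lines are group means, bars are SD (n = 3 arrays) and the dotted line is at 4. SV2A, DDIT3, MX1 and AHRR are at the control level at the low dose and higher at the high dose, ATF3 climbs at both steps, and MGAT5 and CLDN2 are lower at the high dose.

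Targets of p53, the transcription factor activated by DNA damage, went further up at the high dose in part. Of 25 tested members, 8 were higher and 0 lower than at the low dose, against 17.1% and 9.95% of all tested genes, with a median difference of 0.22. With the replicate block, 11 were higher and 2 lower. Low minus control called 3 higher and 3 lower, against 11.6% and 13.5% of all tested genes. High minus control called 12 higher and 5 lower, against 27.4% and 24%. The median over members was 9.05, 8.93 and 8.89 on the high dose arrays and 8.61, 8.49 and 8.40 on the low dose arrays. On the control arrays it was 8.98, 8.96 and 8.81, above the low dose arrays and near the high dose arrays. GADD45A, which acts in growth arrest after damage, had log2 values of 10.71, 10.84 and 10.91 at the high dose, against 9.39, 9.16 and 9.61 at the low dose, a difference of 1.44 ± 0.20 (SE; adjusted p = 9.64e-05). PMAIP1 (NOXA), a BH3-only death protein, had log2 values of 11.70, 11.81 and 11.80 at the high dose, against 10.07, 10.13 and 10.88 at the low dose, a difference of 1.41 ± 0.26 (SE; adjusted p = 0.000862). For both genes every high dose array lay above every low dose array, and low minus control did not pass the test. XPC and DDB2, damage recognition proteins of nucleotide excision repair, were higher by 0.64 ± 0.10 and 0.49 ± 0.09 (log2, SE; adjusted p = 0.00021 and 0.00115); DDB2 was chosen after its values were seen.

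CDKN1A (p21), the cell cycle inhibitor of the same pathway, was near the threshold of the test. It had log2 values of 10.94, 10.74 and 10.80 at the high dose, against 10.49, 10.32 and 10.24 at the low dose, and the difference of 0.47 ± 0.19 (SE) did not pass the test (adjusted p = 0.0775), although it did with the replicate block (adjusted p = 0.0397), with the 9 Aa arrays at 24 h (0.0194) and with only the 6 arrays compared (0.0385), and its dose groups did not overlap. Low minus control was 1.09 (adjusted p = 0.000734). MDM2, the ubiquitin ligase that restrains p53, differed by 0.26 ± 0.15 between the doses (SE; adjusted p = 0.232) and by -0.02 between low dose and control, neither passing the test. TP53I3, a p53 target linked to reactive oxygen, had log2 values of 7.79, 7.59 and 7.56 at the high dose, against 6.32, 6.16 and 6.43 at the low dose, a difference of 1.34 ± 0.17 (SE; adjusted p = 5e-05). The controls lay at 8.50, 8.55 and 8.81, above both doses, so TP53I3 fell at the low dose (-2.32, adjusted p = 6.24e-07) and came part of the way back at the high dose.

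Some antioxidant targets of NRF2 rose between the doses. NRF2 is released from KEAP1 when electrophiles or oxidants modify that sensor, and it then raises glutathione synthesis and detoxifying enzymes. Of 22 tested targets, 8 (36.4%) were higher and 0 lower with the high dose than with the low dose, against 17.1% and 9.95% of all tested genes, with a median difference of 0.37. Low minus control called 3 higher and 0 lower, against 11.6% and 13.5% of all tested genes. High minus control called 13 higher and 1 lower, against 27.4% and 24%. Without low dose replicate 2, or with only the 6 arrays compared, 4 targets were higher between the doses. NQO1, a quinone reductase, had log2 values of 11.72, 11.81 and 11.54 at the high dose, against 10.82, 10.52 and 11.01 at the low dose, a difference of 0.91 ± 0.16 (SE; adjusted p = 0.000875). Low dose and control differed by -0.27 (adjusted p = 0.261). GCLC, the catalytic subunit of the first enzyme of glutathione synthesis, had log2 values of 9.85, 9.82 and 9.78 at the high dose, against 8.91, 8.83 and 9.05 at the low dose, a difference of 0.89 ± 0.12 (SE; adjusted p = 6.98e-05); it was chosen after its values were seen. OSGIN1, an oxidative stress-induced growth inhibitor, was at least 2.64-fold higher at the high dose (5.67, 5.27 and 5.27) than at the low dose (3.40, 3.90 and 2.98; adjusted p = 8.87e-06). For all 3 the groups did not overlap. HMOX1, heme oxygenase 1, stood apart, with log2 values of 9.24, 8.90 and 9.74 at the high dose and 9.13, 8.76 and 9.07 at the low dose, overlapping groups and a difference of 0.31 ± 0.22 (SE; adjusted p = 0.338), after a low minus control difference of 0.80 (adjusted p = 0.0145).

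Many interferon-stimulated genes were higher at the high dose. Cells switch them on when cytosolic nucleic acid sensors or interferon receptors activate transcription factors of the IRF family. Of 33 tested members, 16 were higher and 0 lower with the high dose than with the low dose, against 17.1% and 9.95% of all tested genes, with a median difference of 0.67. Counts of 16 higher and 0 lower were also found after quantile normalization and after shifting the arrays to 1 median. Low minus control called 5 higher and 4 lower, near the 11.6% and 13.5% of all tested genes. High minus control called 16 higher and 3 lower, against 27.4% and 24%. At an unadjusted p under 0.05, 0 interferon-stimulated genes were lower between the doses, and the same holds for the NRF2, immediate early, histone and ribosome biogenesis lists. The count of higher members stayed between 15 and 17 when any 1 array was left out.

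Several called members hold a match to the interferon-stimulated response element, a binding sequence of IRF family factors, close upstream of their start. The motif searched was GAAANNGAAA, or TTTCNNTTTC on the other strand, in the 250 bases before the start of the RefSeq promoter (GRCh38.p14). The 7 called members that held it are shown because this motif is the textbook mark of the group. Each sequence is the stretch around the match nearest to the start, read 5′ to 3′ on the strand of the gene. Matches inside that stretch are in capitals (TAP1 shows 2 that overlap, IFIT1 2 that do not). In the 250 bases IFI6 held 3 matches, and IFIT3, IFIT5 and OAS3 held 2 each, of which 1 a gene is shown. IFI6 is at chr1:27672261-27672300 (minus strand), IFIT1 at chr10:89392505-89392544, IFIT3 at chr10:89327860-89327899, IFIT5 at chr10:89414534-89414567, OAS3 at chr12:112938447-112938473 and PARP14 at chr3:122680795-122680834 (plus strand), and TAP1 at chr6:32853808-32853847 (minus strand).
IFI6: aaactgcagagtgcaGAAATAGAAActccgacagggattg
IFIT1: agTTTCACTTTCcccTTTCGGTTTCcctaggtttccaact
IFIT3: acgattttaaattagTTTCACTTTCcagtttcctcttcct
IFIT5: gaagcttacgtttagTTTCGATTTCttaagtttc
OAS3: cggagagccgggcggGAAAACGAAAcc
PARP14: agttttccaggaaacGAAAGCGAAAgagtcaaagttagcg
TAP1: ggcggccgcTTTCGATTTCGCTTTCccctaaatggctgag
Of the 16 called members 13 had a promoter in the table, so the motif was in 53.8% of them, against 50% (8 of 16) of the tested members that were not called, 2.23% of all tested genes with a promoter (203 of 9087) and 3.07% of all 27305 promoters. A match is a description of letters, not a site of binding.

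Among the regulators, IRF7, the factor that amplifies interferon production, had log2 values of 7.66, 7.43 and 7.37 at the high dose, against 5.47, 6.24 and 6.02 at the low dose, a difference of 1.58 ± 0.18 (SE; adjusted p = 1.96e-05). Its low dose arrays were below the control arrays (6.54, 6.37 and 6.70), with low minus control at -0.63 (adjusted p = 0.0188). IRF9, a transcription factor of the interferon response, had log2 values of 8.97, 8.94 and 8.95 at the high dose, against 7.92, 7.72 and 8.0 at the low dose, a difference of 1.07 ± 0.12 (SE; adjusted p = 1.51e-05). Both regulators were higher on every high dose array than on any low dose array. Among the effectors, MX1, an antiviral GTPase, was at least 1.72-fold higher at the high dose (4.73, 5.18 and 4.44) than at the low dose (2.76, 2.57 and 2.59; adjusted p = 1.22e-05), where it was under 4. IFIT2, which binds viral RNA, had log2 values of 9.12, 9.48 and 8.83 at the high dose, against 7.90, 7.87 and 8.01 at the low dose, a difference of 1.21 ± 0.22 (SE; adjusted p = 0.00079), while another probe set of IFIT2 was tested and not called. IFIT1 and IFIT3, whose upstream sequences are shown above, differed by 1.26 ± 0.37 and 0.62 ± 0.14 (SE; adjusted p = 0.0186 and 0.00407). ISG15, a ubiquitin-like modifier, was higher by 0.72 ± 0.26 (SE) with an adjusted p of 0.0558, and 0.000142 with the replicate block. IRF9, IFIT1, IFIT2, IFIT3 and ISG15 were chosen after their values were seen.

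Aryl hydrocarbon receptor genes moved in both directions. This receptor is a ligand-activated transcription factor that induces its own repressor and cytochrome P450 enzymes. Of 8 tested genes, 4 were higher and 2 lower with the high dose than with the low dose, against 17.1% and 9.95% of all tested genes, and 1 was lower without high dose replicate 1 or 3 or low dose replicate 2. For these genes limma called 0 for low minus control (2 higher and 0 lower at an unadjusted p under 0.05), against 25.1% of all tested genes called. AHRR, the receptor's repressor, was at least 2.15-fold higher at the high dose (4.64, 5.34 and 5.33) than at the low dose (2.31, 2.26 and 2.71; adjusted p = 9.46e-08). TIPARP, a mono-ADP-ribosyltransferase that also restrains the receptor, had log2 values of 10.07, 10.45 and 9.98 at the high dose, against 11.33, 11.77 and 11.24 at the low dose, a difference of -1.28 ± 0.21 (SE; adjusted p = 0.000398). The repressor and the feedback enzyme therefore went opposite ways, each without overlap.

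Some early-response and NF-κB genes rose at the high dose. Immediate early genes are transcription factors and their partners that respond to signals without new protein synthesis; 10 of 26 (38.5%) were higher and 0 lower with the high dose than with the low dose, against 17.1% and 9.95% of all tested genes, with 6 higher without high dose replicate 1 and 6 without low dose replicate 2. NR4A2, an orphan nuclear receptor, was at least 3.5-fold higher (adjusted p = 8.92e-05), at 5.95, 5.97 and 5.50 at the high dose and 3.89, 3.82 and 3.90 at the low dose. IER5, a regulator of heat shock factor, differed by 1.23 ± 0.19 (SE; adjusted p = 0.000249) and was at the control level at the low dose (0.08). NFKBIA, the inhibitor that NF-κB induces to end its own activity, had log2 values of 12.62, 12.56 and 12.40 at the high dose, against 11.56, 11.24 and 11.52 at the low dose, a difference of 1.09 ± 0.12 (SE; adjusted p = 1.59e-05), after 0.58 at the low dose (adjusted p = 0.00275). NFKBIE, its relative, differed by 1.13 ± 0.18 (SE; adjusted p = 0.000275) and by 0.17 for low minus control. Of the 19 tested cytokine and NF-κB genes, 5 (26.3%) were higher and 1 (5.26%) lower, a count that went down to 2 higher after quantile normalization, after shifting the arrays, without high dose replicate 3 and without low dose replicate 2, and to 3 higher without high dose replicate 1 or 2 or low dose replicate 1.

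Growth factor genes numbered 4 higher (21.1%) and 2 lower (10.5%) of 19, near the shares of all tested genes, with a median difference of 0.05; 5 were lower with the replicate block and 4 without low dose replicate 3. FGF18, a fibroblast growth factor, had log2 values of 10.08, 9.78 and 9.78 at the high dose, against 8.51, 6.23 and 8.37 at the low dose, a difference of 2.17 ± 0.44 (SE; adjusted p = 0.00191). Its larger step came at the low dose, with low minus control at 3.61 (adjusted p = 4.27e-05) and controls at 4.13, 3.90 and 4.26, and low dose replicate 2 was the lowest treated array. HBEGF, a ligand of the EGF receptor, had log2 values of 10.06, 9.79 and 10.03 at the high dose, against 7.83, 7.13 and 8.48 at the low dose, a difference of 2.15 ± 0.36 (SE; adjusted p = 0.000454). Neither gene's dose groups overlapped.

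Some histone transcripts rose at the high dose. Replication-dependent histone mRNAs lack a poly(A) tail in cycling cells, and poly(A)-primed arrays record the fraction that carries one. Of 9 tested histone genes, 5 (55.6%) were higher and 0 lower with the high dose than with the low dose, against 17.1% and 9.95% of all tested genes. The median difference was 0.83, or 0.65 with values under 4 set to 4. With that floor H2BC21, 1 of the 5, differed by 0.06 and was not called (limma, adjusted p = 0.641). The count of higher genes was 2 without high dose replicate 1, 3 without high dose replicate 2 and 2 without low dose replicate 2. The median over the 9 genes was 6.51, 6.71 and 6.20 on the high dose arrays, against 5.73, 5.78 and 6.10 on the low dose arrays, so the groups were apart by a small margin. Of 31 ribosome biogenesis genes, 6 (19.4%) were higher, near the 17.1% of all tested genes, and 0 lower. With the replicate block 13 were higher, against 25.3% of all tested genes under that block. The count was 3 higher without low dose replicate 1 or with the arrays shifted to 1 median. NOP2, an rRNA methyltransferase, had log2 values of 10.41, 10.21 and 10.20 at the high dose, against 9.06, 8.75 and 9.25 at the low dose, 2.38-fold higher (adjusted p = 2.16e-05). NOP58, a core protein of box C/D particles that guide rRNA methylation, differed by 0.83 ± 0.12 (SE; adjusted p = 0.000128). Both were at the control level at the low dose, with low minus control at 0.27 and -0.09.

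DNA repair genes were divided between the steps. Of 25 nucleotide excision repair genes, 7 (28%) were higher and 1 (4%) lower with the high dose than with the low dose, against 17.1% and 9.95% of all tested genes, and 0 were lower without high dose replicate 3 or low dose replicate 1 or 2. ERCC5, the endonuclease XPG that cuts 3′ of a lesion, had log2 values of 9.21, 9.28 and 9.18 at the high dose, against 8.42, 8.43 and 8.41 at the low dose, a difference of 0.80 ± 0.12 (SE; adjusted p = 0.000276), after a drop at the low dose (-0.43, adjusted p = 0.0212). Of 30 recombination, Fanconi and checkpoint genes, 7 (23.3%) were higher and 2 (6.67%) lower at the high dose. That count rests on scale and on single arrays, since 2 were higher after quantile normalization or shifting, 2 without low dose replicate 2, and 4 without high dose replicate 1 or 2. MDC1, a scaffold at double-strand breaks, had log2 values of 10.12, 10.00 and 9.84 at the high dose, against 9.11, 8.33 and 8.68 at the low dose, a difference of 1.28 ± 0.21 (SE; adjusted p = 0.000453). FANCC, a subunit of the Fanconi core complex, dropped by 1.22 ± 0.14 (log2, SE; adjusted p = 2.31e-05), with 7.00, 7.11 and 7.11 at the high dose and 8.48, 8.25 and 8.14 at the low dose. Low minus control had already called 13 of these 30 genes higher and 2 lower, against 11.6% and 13.5% of all tested genes. Of these 15, 7 had the interval of the dose step within 1.5-fold, against 37.2% of all genes called at the low dose and 11 of all 30 members.

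Genes of the S phase, mitosis and sterol synthesis had changed at the low dose, many of them with little further change. Of 49 DNA replication and S phase genes, low minus control called 22 higher and 3 lower, against 11.6% and 13.5% of all tested genes. Of these 25, 15 had the 95% interval of high minus low within 1.5-fold, 2 were called further the same way and 1 was called back. The interval lay within 1.5-fold for 37.2% of all genes called at the low dose. It did so for 29 of all 49 members, called or not, a share close to that of the called members. The dose step itself called 4 higher and 3 lower, against 17.1% and 9.95% of all tested genes. With the replicate block 11 were higher, against 25.3% of all tested genes under that block. The counts were 2 higher and 5 lower with the arrays shifted to 1 median, and 2 higher without low dose replicate 2. DTL, an adaptor of a ubiquitin ligase that clears replication licensing factors, had log2 values of 12.27, 12.27 and 12.61 at the high dose and 12.38, 12.49 and 12.62 at the low dose, a difference of -0.12 with a 95% interval of -0.37 to 0.14. Low minus control was 0.97 (adjusted p = 5.09e-05), so DTL rose at the low dose and the further step, if any, lay within that interval. CCNE2, a G1/S cyclin, had a dose step of 0.22 (-0.12 to 0.56) after 0.87 at the low dose, and PCNA, the sliding clamp, 0.24 (0.06 to 0.42; adjusted p = 0.0512, 0.0233 with the replicate block) after 0.45. The recombination genes BLM and BRCA1 had dose steps of -0.13 (-0.45 to 0.20) and 0.16 (-0.22 to 0.54) after 0.85 and 0.70. These 5 genes were chosen after their values were seen.

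RRM2, the regulatory subunit of ribonucleotide reductase, fell at the high dose. It had log2 values of 12.84, 12.94 and 12.85 at the high dose, against 13.73, 13.77 and 13.68 at the low dose, a difference of -0.85 ± 0.11 (SE; adjusted p = 4.14e-05), with low minus control at 0.19 (adjusted p = 0.223). All its high dose arrays were below all its low dose arrays.

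Mitotic genes were lowered at the low dose and in part further at the high dose. Of 40 members, low minus control called 16 lower and 1 higher, against 13.5% and 11.6% of all tested genes. Of these 17, 9 had the interval of the dose step within 1.5-fold and 6 were called further the same way. The shares among all genes called at the low dose were 37.2% and 24.9%. Of all 40 members, called at the low dose or not, 27 had the interval within 1.5-fold. High minus low called 8 lower and 1 higher, 20% and 2.5% against 9.95% and 17.1% of all tested genes, but 3 lower without low dose replicate 2 and 5 without high dose replicate 3. KIF20A, a kinesin of cytokinesis, had log2 values of 9.74, 9.62 and 9.52 at the high dose and 9.83, 10.14 and 9.57 at the low dose, overlapping groups and a difference of -0.22 (95% interval -0.58 to 0.14), after -1.28 at the low dose (adjusted p = 8.5e-05). KIF20A was chosen after its values were seen. AURKA, the kinase that matures spindle poles, had log2 values of 10.76, 10.79 and 10.60 at the high dose, against 11.36, 11.65 and 11.18 at the low dose, a difference of -0.68 ± 0.15 (SE; adjusted p = 0.0042), after a similar step of -0.69 at the low dose. MKI67, the proliferation marker Ki-67, differed by 0.02 ± 0.14 between the doses (SE; adjusted p = 0.929) and by -0.17 between low dose and control (adjusted p = 0.441), neither passing the test.

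Sterol synthesis genes were lowered at the low dose, and the dose step called shares of them near or under those of all tested genes. Of 19 genes, low minus control called 10 lower and 0 higher, against 13.5% and 11.6% of all tested genes. Of these 10, 5 had the interval of the dose step within 1.5-fold, against 37.2% of all genes called at the low dose and 9 of all 19 members. A further 2 were called further and 1 was called back. Between the doses 2 (10.5%) were higher and 2 (10.5%) lower, against 17.1% and 9.95% of all tested genes. With the arrays shifted to 1 median, 0 were higher and 4 lower. The count of higher genes was 0 without low dose replicate 1 and 1 without any one of high dose replicates 2 and 3 and low dose replicates 2 and 3, and that of lower genes 1 without high dose replicate 3 or low dose replicate 2. ACAT2, which makes acetoacetyl-CoA, had a high minus low log2 difference of -0.08 (95% interval -0.41 to 0.26) after -0.87 at the low dose, and SQLE, squalene epoxidase, -0.21 (-0.37 to -0.04; adjusted p = 0.0641, 0.025 with the replicate block) after -0.68. Both were chosen after their values were seen.

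**Figure D4:**
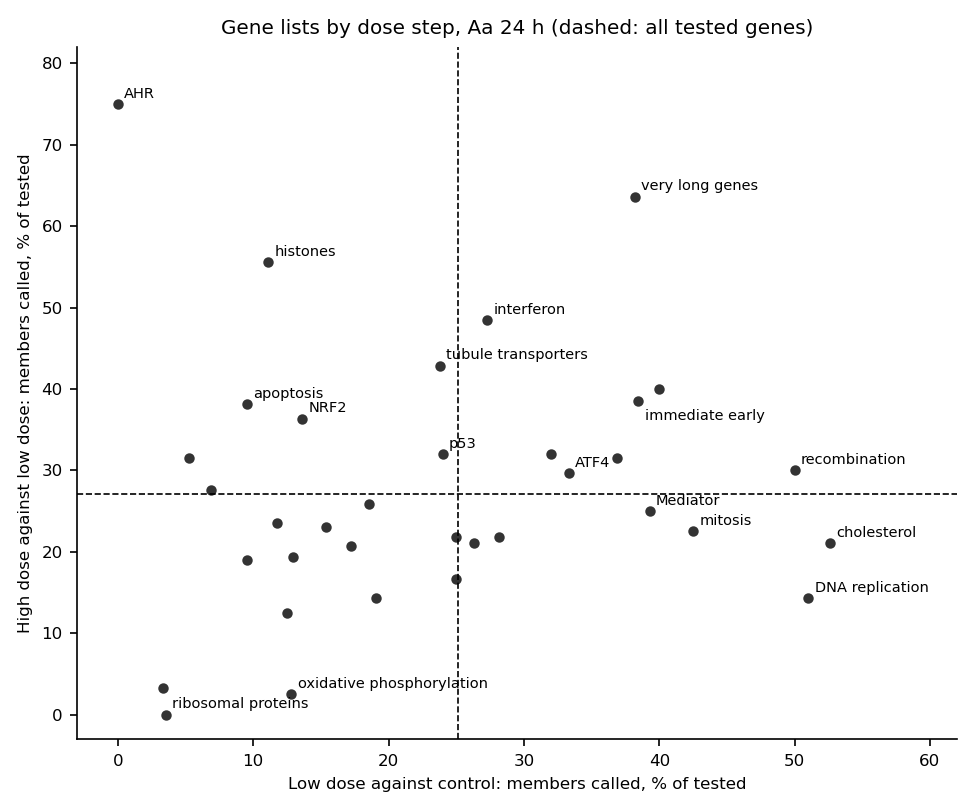
For each gene list at 24 h, percent of tested members called in either direction for low minus control (x axis) against percent called for high minus low (y axis), with dashed lines at the shares of all tested genes, 25.1% and 27.1%. DNA replication and cholesterol genes lie to the right of and below the dashed lines, and very long, interferon-stimulated and immediate early genes lie high.

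Several junction and transporter genes fell with the high dose. Of 29 tested junction and mesenchymal genes, 7 (24.1%) were lower and 1 (3.45%) higher than at the low dose, against 9.95% and 17.1% of all tested genes. Low minus control called 2 lower and 0 higher, against 13.5% and 11.6%. CLDN2, the claudin of the leaky proximal tubule junction, had log2 values of 8.83, 8.59 and 7.81 at the high dose, against 10.66, 10.69 and 9.86 at the low dose, a difference of -1.99 ± 0.36 (SE; adjusted p = 0.00082). CDH2, N-cadherin, dropped by 1.26 ± 0.23 (log2, SE; adjusted p = 0.000921), and both genes' groups were apart. SNAI1, a repressor of epithelial genes, was under 4 on the low dose arrays (3.11, 3.61 and 3.17) and at least 1.52-fold higher at the high dose (4.79, 4.31 and 4.72; adjusted p = 0.00018). Of 21 tubule transporters, 6 (28.6%) were lower and 3 (14.3%) higher, and 10 were lower with the replicate block. SLC27A2, a fatty acid transporter and acyl-CoA synthetase, dropped by 2.77 ± 0.52 (log2, SE; adjusted p = 0.00115), or by 2.66 with values under 4 set to 4, since 2 of its 3 high dose arrays were under 4. SLC7A9, a light chain of the cystine transporter, was at least 4.35-fold higher at the high dose (6.41, 6.63 and 5.33) than at the low dose (3.77, 1.89 and 3.74; adjusted p = 0.000151).

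Of 21 tested kidney injury markers, 1 (4.76%) was higher and 2 (9.52%) lower with the high dose than with the low dose, against 17.1% and 9.95% of all tested genes, and 4 were lower with the replicate block. HAVCR1 (KIM-1), the injury marker of the proximal tubule, had log2 values of 9.94, 10.29 and 10.35 at the high dose, against 10.70, 11.29 and 11.16 at the low dose, a difference of -0.85 ± 0.16 (SE; adjusted p = 0.00102). VCAM1, an adhesion molecule, dropped by 1.76 ± 0.28 (log2, SE; adjusted p = 0.000319), with 4.83, 4.89 and 4.30 at the high dose and 6.10, 6.62 and 6.60 at the low dose. In both the groups did not overlap. Among 21 apoptosis regulators 5 (23.8%) were higher and 3 (14.3%) lower, with 3 higher and 1 lower without low dose replicate 2. Besides PMAIP1 these included BCL2L2 (BCL-W), a protector from cell death, which dropped by 1.10 ± 0.19 (log2, SE; adjusted p = 0.000691).

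Of 32 hypoxia and glycolysis genes, 5 (15.6%) were higher and 2 (6.25%) lower at the high dose, near or under the 17.1% and 9.95% of all tested genes, with a median difference of 0.02. The count of lower genes was 1 without high dose replicate 3 or low dose replicate 2, and the most changed member was ALDOC, the brain form of aldolase, higher by 2.97 ± 0.38 (log2, SE; adjusted p = 5.36e-05), or 2.60 with values under 4 set to 4. ANKRD37, a hypoxia-induced gene, was higher by 1.94 ± 0.28 (log2, SE; adjusted p = 0.000143) and ADM, the vasodilator adrenomedullin, by 1.74 ± 0.39 (adjusted p = 0.00354). In the Mediator list 3 were higher and 4 lower of 28, and 5 and 8 with the replicate block; MED13L and MED27, both subunits of that RNA polymerase II coactivator, dropped by 1.32 and 1.10 (log2; adjusted p = 0.00196 and 0.00196). Without high dose replicate 1, 1 Mediator gene was higher, and without low dose replicate 2, 1 was higher and 2 were lower. POM121, a membrane protein of the nuclear pore, rose by 1.06 ± 0.20 (log2, SE; adjusted p = 0.00122) after 1.66 at the low dose, within a list of 29 with 4 higher and 2 lower (8 and 5 with the block).

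Housekeeping complexes were close to level between the doses. Of 28 tested cytosolic ribosomal protein genes 0 were called (limma; 0 at an unadjusted p under 0.05), and in all 28 the 95% interval of the dose step lay within 1.5-fold, against 40.2% of all tested genes. The interval lay within 1.5-fold for 36 of 39 oxidative phosphorylation genes, of which 0 were higher and 1 lower, and for 26 of 30 proteasome subunits, of which 1 was higher and 0 lower. The remaining stress and metabolic lists are small, and their counts stand against 17.1% and 9.95% of all tested genes. Counts with the block stand against 25.3% and 16.2%. Cytosolic heat shock chaperones gave 4 higher of 17, with 2 higher without high dose replicate 2 or low dose replicate 2. ER chaperones gave 3 higher and 1 lower of 21, led by the co-chaperone DNAJB9 with a difference of 0.75 ± 0.16 (log2, SE; adjusted p = 0.00283). Metallothioneins gave 1 higher of 8, aminoacyl-tRNA synthetases 4 higher and 3 lower of 27 (8 and 3 with the block), mitochondrial carriers 4 and 3 of 32, and purine and pyrimidine synthesis 1 and 3 of 19 (4 and 5 with the block, 1 lower without low dose replicate 2). Fatty acid synthesis gave 2 higher of 12 (3 and 3 with the block), arrestin-domain genes 2 of 5, and plasminogen and metalloproteinase genes 3 of 13, of which 1 was left without any one of high dose replicates 1 and 2 and low dose replicates 1 and 2. The mitochondrial carrier list had 2 higher without low dose replicate 3. With the arrays shifted to 1 median the balance turned to lower in several of these lists, with 4 metallothioneins, 3 fatty acid synthesis genes, 5 mitochondrial carriers and 4 nuclear pore genes lower.

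A few genes were changed by at least 2-fold at the low dose and held that level. USP49, a deubiquitinase, had log2 values of 8.33, 8.65 and 8.33 at the high dose and 8.64, 8.30 and 8.19 at the low dose, with overlapping groups, while low minus control was 2.06 (adjusted p = 2.51e-05). BRWD1, a chromatin reader, had a dose step of -0.07 (95% interval -0.44 to 0.31) after 1.99 at the low dose, and SLC16A14, a monocarboxylate transporter family member, 0.06 (-0.42 to 0.54) after being at least 1.95-fold higher at the low dose than in controls, all of which were under 4. Of the genes that had fallen, PEX10, a peroxisome biogenesis factor, had log2 values of 5.04, 4.92 and 5.15 at the high dose and 5.04, 5.49 and 4.92 at the low dose after a low minus control difference of -2.42 (adjusted p = 1.22e-06). METTL23, a methyltransferase family member, had -0.02 (-0.52 to 0.48) after -2.09. In 12 of the 76 lowered genes of this pattern, MPI, TDRKH and NRAV among them, both doses lay wholly at or under 4, so a further fall could not have been seen. For PCNX2 and RIF1 another probe set of the gene was called between the doses the opposite way, so their level depends on the probe set.

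Genes called in opposite directions at the low and the high dose step were mainly ones the low dose had lowered, 189 of 253. COQ3, a methyltransferase of ubiquinone synthesis, had log2 values of 8.81, 8.94 and 8.56 at the high dose, against 7.47, 7.89 and 7.50 at the low dose, a difference of 1.15 ± 0.19 (SE; adjusted p = 0.000444), after a low minus control difference of -2.34. SNAPC5, a subunit of the snRNA-activating complex, showed the same order with 1.63 ± 0.41 (SE; adjusted p = 0.00743) after -3.05. In the other direction, MPHOSPH9 dropped by 0.58 (log2; adjusted p = 0.00465) after a rise of 1.45 at the low dose, and 3 further probe sets of that gene were tested with none called the same way. The low dose arrays enter both steps of these genes.

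**Figure D5:**
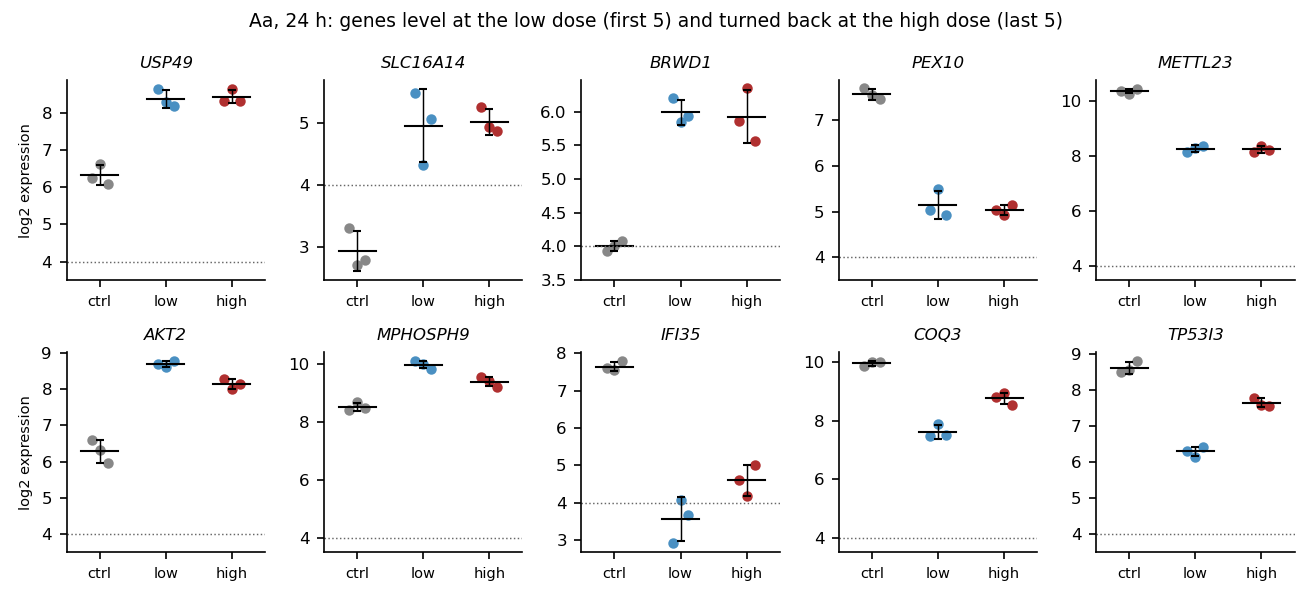
Log2 GCRMA values of 10 genes in control, low dose and high dose arrays at 24 h. Points are arrays, short horizontal lines are group means, bars are SD (n = 3 arrays) and the dotted line is at 4. USP49, SLC16A14, BRWD1, PEX10 and METTL23 hold the low dose level at the high dose, and AKT2, MPHOSPH9, IFI35, COQ3 and TP53I3 move back toward the control.

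The step between the doses was measured again at 48 h in separate cultures. There 5107 genes (46.5%; 20.9% higher and 25.6% lower) were called, and the difference between the dose steps at the 2 times was called for 409 genes (3.73%). Of the 1878 genes higher at 24 h, 1311 were higher at 48 h, which is 69.8% of the 24 h list and 57.0% of the 48 h list. Of the 1092 lower genes, 966 were lower at 48 h, 88.5% of the 24 h list and 34.4% of the 48 h list. Very long genes kept their direction, with 38 of 55 lower and 0 higher at 48 h. Mitotic genes, 8 of 40 lower at 24 h, were lower in 32 of 40 at 48 h. Ribosome biogenesis genes numbered 18 higher of 31 and histone genes 9 of 9 at 48 h. Interferon-stimulated genes were 10 higher and 7 lower at 48 h, and NRF2 targets 3 and 3. The change of a list's counts between the times was not tested.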

How the data were processed

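Total RNA of HK-2 cells was measured on single-colour Affymetrix U133 Plus 2.0 arrays, 1 array a sample. The authors deposited log2 values for each probe set, made with GCRMA, per the submitters' processing notes. The version of GCRMA is not given in the sources used here, nor is the set of arrays that were normalized jointly. Of 54675 probe sets, 41091 have 1 gene symbol in the platform annotation, 1801 have several and 11721 none, and 62 control sets were left out; 41037 matched RefSeq by gene ID. Each of 19775 genes was represented by its probe set with the highest mean over all arrays, and genes above 4 on at least 3 of the 18 Aa arrays were tested.

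Group means were fitted with limma 3.58.1 (R 4.3.3) on the 18 Aa arrays, which leaves 12 residual degrees of freedom, with two-sided tests and Benjamini-Hochberg adjustment over 10972 genes. The fit was tested on simulated data for high minus low dose over 10972 genes, with 50 genes changed at each size and independent noise on every array. There it called 34% of genes changed by 0.5, 82% by 1, 98% by 2 and 96% by 3 on the log2 scale, and 6 unchanged genes. Far fewer genes were changed there than were called in the data, and same-numbered arrays did not deviate together. These shares therefore need not hold for the data. The number of arrays limits the precision, and the median standard error was 0.174. The labels call the replicates biological. They do not say whether cultures were independent, so p-values measure the spread between these samples. Same-numbered arrays deviated together from their group means (correlations of 0.37 to 0.51 between high and low dose, 0.38 to 0.56 between high dose and control, 0.31 to 0.52 between low dose and control, and 0.19 to 0.44 at 48 h), so the replicate numbers were taken to pair the arrays, from the data and not from the labels. Blocked values are given for some results only, and other list counts changed with the block as well. Between the doses it gave 8 higher and 3 lower cytokine and NF-κB genes, and 4 higher and 10 lower junction and mesenchymal genes. Mitotic genes then numbered 1 higher and 12 lower, and interferon-stimulated genes 19 higher and 0 lower.

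Changes are given as "at least" a fold where all 3 arrays of the dimmer group lay at or under 4, with that group set to 4. Named genes are the 12 largest rises and falls without overlap, the 3 most changed members of each list with at least 3 calls, 9 fixed stress, injury and proliferation genes, and 5 genes each way per dose pattern. Others are marked as chosen after their values were seen. Members and the 40 lists were chosen with earlier results of these data known. Alternatives changed the filter, the arrays in the fit, the replicate block, the floor, the scaling, the probe set rule, the variance prior and the margin, and left out each array. Scan dates and detection calls were not used here, so array batches were not tested. Promoter sequences are those of RefSeq on GRCh38.p14.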

Additional observations from a re-analysis of the deposited data

Results flagged for a closer look

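The step from the low to the high dose differed between 48 h and 24 h in 409 of 10972 genes (limma interaction, adjusted p under 0.05). Groups of 3 arrays were too small for a test of outlying arrays. Among the named genes, 9 showed such a difference. All values below are log2 differences, with the interaction given as the 48 h minus the 24 h dose step. AHRR, the aryl hydrocarbon receptor repressor, lay at or under 4 at both doses at 48 h, and its interaction was -2.52 (adjusted p = 2.59e-05), or -1.10 with values under 4 set to 4. BHLHA15, a transcription factor of secretory cells, also lay at or under 4 at both doses at 48 h and at the low dose at 24 h, and its interaction was -2.76 (adjusted p = 0.0109), or -2.31 with values under 4 set to 4. SLC25A34, a mitochondrial carrier, had 2.36 at 48 h and 4.22 at 24 h (-1.86, adjusted p = 0.0201), or -1.06 with values under 4 set to 4. NFKBIE, an inhibitor of NF-κB, had 0.13 at 48 h and 1.13 at 24 h (-1.0, adjusted p = 0.0372). HMOX1, heme oxygenase 1, had -1.18 at 48 h and 0.31 at 24 h (-1.49, adjusted p = 0.0183). SNAI1, a repressor of epithelial genes, had a step of 3.09 at 48 h and of 0.61 at 24 h with values under 4 set to 4, as on all its low dose arrays at 24 h. Its interaction was 1.78 (adjusted p = 0.00282), or 2.48 with that floor. CXCL8, interleukin 8, had 0.82 at 48 h and -1.06 at 24 h (1.88, adjusted p = 0.0109). RNFT2, a ring finger protein, had -3.25 at 48 h and -1.10 at 24 h (-2.15, adjusted p = 0.0236). CENPE, a kinetochore kinesin, had -1.18 at 48 h and -0.58 at 24 h (-0.60, adjusted p = 0.0484).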

How the results depend on the processing

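The numbers of called genes were within 1.5 times the reported ones under the alternatives, other than those given here, and the cause of each was not tested unless fewer arrays are the cause. With the replicate block, high minus low at 24 h called 4553 genes (1776 lower), low minus control 4323, and the dose patterns held 1609 genes changed with the high dose, 1328 graded and 617 turned back. Fitting only the arrays of the groups compared gave 455 graded and 146 turned back genes, and fitting all 36 arrays gave 156 turned back. A 2-fold margin gave 1501 genes changed with the high dose and 366 level from the low dose, and the narrower margin 158 and 9. With 1 array left out, high minus low called 2012 to 2797 genes (1303 to 1780 higher and 709 to 1086 lower), high minus control 4946 to 5194, low minus control 1947 to 2759, and high minus low at 48 h 4256 to 4756. The patterns then held 490 to 800 genes changed with the high dose, 407 to 615 graded, 70 to 128 level and 167 to 230 turned back. Of 138 named genes, 124 were called; 91 kept the call under all alternatives run (17 a gene, 16 for AHRR and MX1), 33 lost it under at least 1, and 1 uncalled gene (CDKN1A) was called under at least 1. The difference changed sign in 0 called and 10 uncalled named genes. AKT2 lost its call without any 1 of the 6 dose arrays (adjusted p = 0.0578 to 0.123). Other losses included IFI35 and USP18 with only the 6 arrays compared (adjusted p = 0.0712 and 0.0608), CXCL8 with all arrays (0.0735), EEF1A1 with the mean over probe sets (0.146), GCLM without low dose replicate 2 or high dose replicate 3 (0.0984 and 0.0828) and H2BC12 without high dose replicate 1 or low dose replicate 2 (0.0521 and 0.0511). The block changed no other call of a named gene than that of CDKN1A.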
